A study of Mus musculus with 12 samples.

Results

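The genes described are 10 members of the Hippo pathway and its TEAD transcription factors, chosen by name. They are the coactivators Yap1 and Wwtr1, the DNA-binding partners Tead1, Tead2, Tead3 and Tead4, the kinases Lats1 and Lats2, the TEAD cofactor Vgll4 and the scaffold gene Amotl2. Of the 10 genes, 9 had values in the deposited table of 21783 genes, and Lats2 was not analysed here. Mouse hearts of embryonic day 10.5 were profiled by RNA-seq and by ribosome footprinting to ask how DDX3X, an X-linked RNA helicase of translation initiation, acts on cardiac mRNAs. CM-KO embryos were labelled female Ddx3x CM-KO, with deletion driven by Tnnt2-Cre, whose promoter is that of a cardiac troponin gene. WT embryos were labelled female Ddx3x fl/fl, and whether they carried Cre is not stated. From 3 pools of 20 hearts per genotype, RNA libraries and libraries of ribosome-protected fragments (footprints) were made, 1 of each kind per pool.

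In the Hippo pathway, a kinase chain that ends in LATS1 and LATS2 phosphorylates YAP1 and its paralog WWTR1 (TAZ), which keeps them in the cytoplasm. Unphosphorylated YAP1 and TAZ enter the nucleus and bind TEAD proteins on DNA, where they activate genes of growth and matrix. In the embryonic mouse heart, YAP1 and TEAD1 are known to be needed for cardiomyocyte proliferation. VGLL4 competes with YAP1 for TEAD proteins, and AMOTL2 binds YAP1 at cell junctions and is itself encoded by a YAP target gene.

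The start regions of the mRNAs are shown because the helicase under study acts in initiation and because annotated TEAD start codons differ. Each line gives 12 bases before the annotated start codon and 18 bases from it, in GENCODE vM39 on GRCm39, with the start codon in capitals. For human TEAD1, translation is known to begin at a codon other than AUG.
Tead1 (chromosome 7, plus strand, start codon at 112358645): ccaaccgccaaaATTgagcccagcagctgg
Tead1, downstream start (chromosome 7, plus strand, 112358690): cctgccgaaaacATGgaaaggatgagcgac
Tead2 (chromosome 7, plus strand, 44866643): cgggaggcccagATGggggatccccggact
Tead3 (chromosome 17, minus strand, 28560524): gcaaccagcacaATAgcgtccaacagctgg
Tead4 (chromosome 6, minus strand, 128248035): aaggccggcaccATTacctccaacgagtgg
Yap1 (chromosome 9, minus strand, 8004391): gaggccgcagccATGgagcccgcgcaacag
Of the coding transcripts annotated with a start, 6 of 12 for Tead1 began at ATT and the other 6 at ATG. For Tead4, 5 of 5 began at ATT. For Tead3, 3 of 4 began at ATA. For Tead2, 15 of 15 began at ATG, as did 6 of 6 for Yap1. Among genes of the deposited table, 47 of 16568 canonical coding transcripts annotated with a start (0.284%) began at a codon other than ATG.

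Before the results, the labels were checked. Ddx3x RNA was at 281, 216 and 221 CPM (counts scaled by library size and by the trimmed mean of M-values, TMM) in CM-KO pools 1, 2 and 3, against 294, 304 and 311 CPM in the WT pools. The CM-KO pools all lay below the WT pools, and the change was -0.34 on the log2 scale (Benjamini-Hochberg adjusted p = 0.0883 in the quasi-likelihood test of edgeR). It passed with upper quartile scaling (-0.39, adjusted p = 0.0408), with DESeq2 (-0.35, 0.00602) and without CM-KO pool 1 (-0.48, 0.00941), and the authors' deposited table lists -0.35 (0.00739). Whole hearts also hold cells in which Tnnt2-Cre is not active. Of the Y-linked gene Uty, 174, 108 and 11 RNA reads were counted in CM-KO pools 1, 2 and 3, and it was blank in the WT pools, where a blank hides at most 10 counts. The Y-linked gene Ddx3y had 106, 64 and 4 RNA reads in CM-KO pools 1, 2 and 3 and 2, 2 and 0 in the WT pools. Its footprint counts were 69, 75 and 24 in CM-KO and 15, 21 and 19 in WT. CM-KO pools 1 and 2 thus held RNA of male tissue against their label, and results were also computed without them. RNA libraries held 15.5 to 17 M counts in CM-KO and 14.7 to 19.9 M in WT, and footprint libraries held 7.74 to 14.3 M in CM-KO and 7.31 to 11.4 M in WT. All 10 cardiomyocyte markers had values in every library. Their summed RNA level was 19153 to 20469 CPM in CM-KO and 17571 to 19330 CPM in WT. Of the 10, 3 were called higher, against 3.57% of all genes. For 8 erythroid markers the sums were 11706 to 14805 CPM in CM-KO and 8492 to 13605 CPM in WT. Of the 8, 2 were called higher, against the same 3.57% of all genes. In footprints the erythroid sums did not overlap, at 66038 to 85437 CPM in CM-KO and 45084 to 54836 CPM in WT (median log2 fold change 0.64), and none of the 8 was called. Of 6 macrophage markers, 4 were tested and none was called. Their footprint sums were 24.7 to 34.0 CPM in CM-KO and 17.9 to 22.1 CPM in WT. Over all genes, 0.23% were called in footprints, and 7.4% had footprints higher in every CM-KO pool than in every WT pool. No erythroid or macrophage marker was listed at 0. In each WT library 1 macrophage marker was blank and added nothing to the sum, while the CM-KO sums held all 6. The macrophage sums of the genotypes thus cover unlike sets of markers and are not read as a difference. Of 8 liver and yolk sac markers, 7 were tested and none was called. Their RNA sums were 50.8 to 347 CPM in CM-KO and 102 to 461 CPM in WT (median log2 fold change -0.78). Of 8 cushion mesenchyme markers, 1 was called higher in RNA and 1 lower in the footprint-to-RNA ratio, against 3.57% and 0.834% of all genes. No endocardial, endothelial or epicardial marker was called. The part of these markers and of male RNA in the results was not tested.

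Tead2 RNA was higher in CM-KO hearts, and it was the only 1 of the 9 measured genes whose RNA passed the threshold, an adjusted p under 0.05 over all genes tested. Tead2 footprints were close to the WT level and were not called. The change of the Tead2 footprint-to-RNA ratio, which compares the assays directly, did not pass (log2 fold change -0.39, adjusted p = 0.519, edgeR). The RNA libraries enter both the RNA and the ratio comparison. Of the other genes, 7 had RNA log2 fold changes above 0 and 1 below, and none passed. Yap1 turned below 0 with relative log expression or upper quartile scaling, and Vgll4 with upper quartile scaling. An unadjusted p under 0.05 was found for 3 of the 9 genes, against 16.1% of all genes. The background was 4.37% of 17147 genes called in RNA, 3.57% higher and 0.805% lower, and with upper quartile scaling 63.6% rather than 81.6% of the called genes were higher. With 1 of 9 called against such a background, the count itself was not read further. The median RNA log2 fold change was 0.13 over the 9 genes and 0.01 over all genes.

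**Figure D1:**
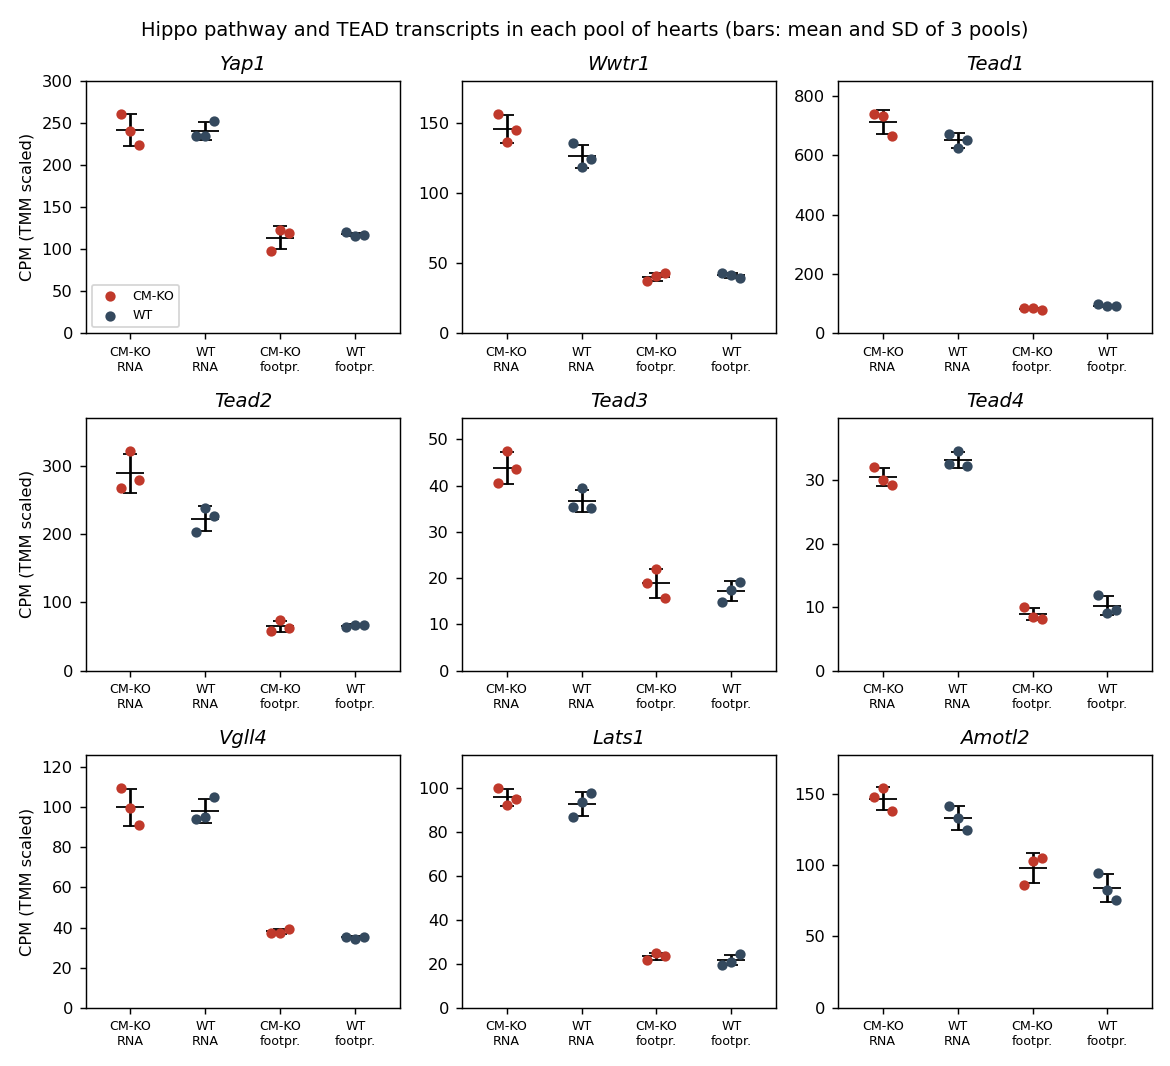
Levels of 9 Hippo pathway and TEAD genes in CPM (y axis, linear from 0) in each pool of hearts, with RNA and footprint (footpr.) libraries of CM-KO (red) left of WT (blue); bars give the mean and SD of 3 pools. Tead2 RNA is 267 to 322 CPM in CM-KO and 203 to 238 CPM in WT, while its footprints overlap.

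Tead2 (chromosome 7, 44865172 to 44883071, GRCm39) encodes a TEAD factor that is prominent in early embryos. Its RNA was at 267, 322 and 279 CPM in CM-KO pools 1, 2 and 3 and at 203, 238 and 227 CPM in WT pools 1, 2 and 3. Every CM-KO pool lay above every WT pool, and the closest values, 267 and 238 CPM, left a gap. The fold was 1.30 (95% confidence interval 1.13 to 1.49), or 0.38 ± 0.09 (SE) on the log2 scale (adjusted p = 0.0409, edgeR). In footprints Tead2 was at 58.2, 74.2 and 62.1 CPM in CM-KO and at 63.4, 67.5 and 66.2 CPM in WT. The genotypes overlapped, with CM-KO pool 2 highest of all and pool 1 lowest, and the log2 fold change was -0.02 (95% interval -0.22 to 0.18, adjusted p = 0.97, edgeR). The RNA call of Tead2 is a narrow one. It was lost without CM-KO pool 2 (log2 fold change 0.29, adjusted p = 0.175), CM-KO pool 3 (0.40, 0.0857), WT pool 1 (0.31, 0.114) or WT pool 2 (0.41, 0.155), in edgeR. It was also lost with upper quartile scaling (0.33, 0.0644), with the replicate number as a block (0.37, 0.0564) and in a joint model of the 12 libraries (0.37, 0.246). Without both CM-KO pools 1 and 2 the change was 0.32 with an adjusted p of 0.327 (edgeR), and 1 CM-KO pool was then assumed to vary as the WT pools did. The authors' deposited table lists 0.37 for the log2 fold change of Tead2 RNA (adjusted p = 0.00111).

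The other TEAD genes gave smaller differences. Tead3 (chromosome 17, 28550645 to 28569791), a TEAD gene with expression in placenta and other embryonic tissues, had RNA at 40.5, 47.5 and 43.5 CPM in CM-KO and at 35.4, 39.4 and 35.2 CPM in WT. The 3 CM-KO pools were above the 3 WT pools, the nearest pair being 40.5 and 39.4 CPM, but the change of 0.26 (log2) did not pass (adjusted p = 0.119, edgeR). Tead1 (chromosome 7, 112278522 to 112506014), the TEAD gene with known roles in the embryonic myocardium, had RNA at 739, 730 and 665 CPM in CM-KO and at 673, 624 and 652 CPM in WT. CM-KO pool 3 fell among the WT pools, and the change was 0.13 on the log2 scale (adjusted p = 0.456, edgeR). Tead4 (chromosome 6, 128201251 to 128277786), a factor of trophectoderm and of skeletal muscle, was at 32.15, 30.1 and 29.3 CPM in CM-KO and at 32.5, 34.6 and 32.25 CPM in WT. It was the one member with a negative RNA log2 fold change, -0.12 (adjusted p = 0.51, edgeR), and the highest CM-KO pool lay just under the lowest WT pool.

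Tead1 footprints were lower in every CM-KO pool, at 86.3, 84.8 and 78.8 CPM, than in the WT pools, at 97.7, 92.5 and 91.2 CPM. The log2 fold change was -0.18 (95% interval -0.34 to -0.02), with an unadjusted p of 0.0345 and an adjusted p of 0.493 in edgeR. Tead3 footprints were at 18.9, 21.9 and 15.8 CPM in CM-KO and at 14.9, 17.5 and 19.2 CPM in WT, and the groups overlapped. Tead4 footprints were the scarcest of the family, at 10.03, 8.52 and 8.17 CPM in CM-KO and at 11.97, 9.14 and 9.61 CPM in WT, and rested on 67 to 121 counts a pool. None of the 9 genes was called in footprints, in which 0.23% of 15249 genes were called in all (0.0853% higher and 0.144% lower), and 1 had an unadjusted p under 0.05 (8.86% of genes did). DESeq2 also called none of the 9 in footprints.

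The coactivators did not pass either test. Yap1 (chromosome 9, 7932000 to 8004661) had RNA at 261, 240 and 224 CPM in CM-KO and at 234, 234 and 253 CPM in WT. The pools interleaved, and the log2 fold change was 0.01 with a 95% interval of -0.16 to 0.17 (adjusted p = 0.988, edgeR). Its sign turned with the scaling, to -0.04 with upper quartile scaling. Yap1 footprints were at 98.0, 124 and 120 CPM in CM-KO and at 120, 116 and 117 CPM in WT, so that CM-KO pool 1 stood apart from the other 5 libraries. The footprint log2 fold change was -0.05 (95% interval -0.25 to 0.14, adjusted p = 0.927, edgeR). Wwtr1 (chromosome 3, 57363067 to 57483331) had RNA at 157, 137 and 145 CPM in CM-KO and at 136, 119 and 125 CPM in WT. No CM-KO pool fell within the WT range, and the change of 0.21 (log2) did not pass (adjusted p = 0.189, edgeR). Its footprints, at 37.5, 41.0 and 43.1 CPM in CM-KO and at 42.9, 41.6 and 39.6 CPM in WT, overlapped (log2 fold change -0.03, adjusted p = 0.957, edgeR).

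Of the inhibitors, Lats1 (chromosome 10, 7556736 to 7592226), the kinase gene, had RNA at 99.9, 92.5 and 94.8 CPM in CM-KO and at 86.8, 93.6 and 97.8 CPM in WT. The genotypes overlapped in RNA and in footprints, which were at 21.8, 25.1 and 23.5 CPM in CM-KO and at 19.6, 21.0 and 24.2 CPM in WT. Vgll4 (chromosome 6, 114837589 to 114946955) had overlapping RNA levels, at 110, 99.8 and 91.0 CPM in CM-KO and at 94.3, 95.04 and 105 CPM in WT. Its footprints were at 37.5, 37.3 and 39.4 CPM in CM-KO and at 35.3, 34.5 and 35.4 CPM in WT. They were higher in each CM-KO pool than in each WT pool, by a log2 fold change of 0.11 that did not pass (adjusted p = 0.765, edgeR). Amotl2 (chromosome 9, 102593836 to 102610617) had RNA at 148, 154 and 138 CPM in CM-KO and at 142, 133 and 125 CPM in WT. Its footprints were at 85.9, 103 and 105 CPM in CM-KO and at 94.4, 82.5 and 75.4 CPM in WT. Changes on the log2 scale were 0.14 for RNA (adjusted p = 0.422) and 0.22 for footprints (adjusted p = 0.604, edgeR), and the pools overlapped in both.

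In RNA, CM-KO pools lay wholly to one side of WT pools for 4 of the 9 genes, Wwtr1, Tead2, Tead3 and Tead4, against 21.7% of all genes. Of these Tead4 was lower and the other 3 higher in CM-KO, against 8.42% of all genes lower and 13.3% higher. In footprints this held for Tead1, which was lower, and Vgll4, which was higher, against 13.9% of all genes, 6.45% lower and 7.4% higher. For a gene of this kind, the exact two-sided permutation test of 3 pools against 3 gives 0.1, the smallest p the design allows.

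**Figure D2:**
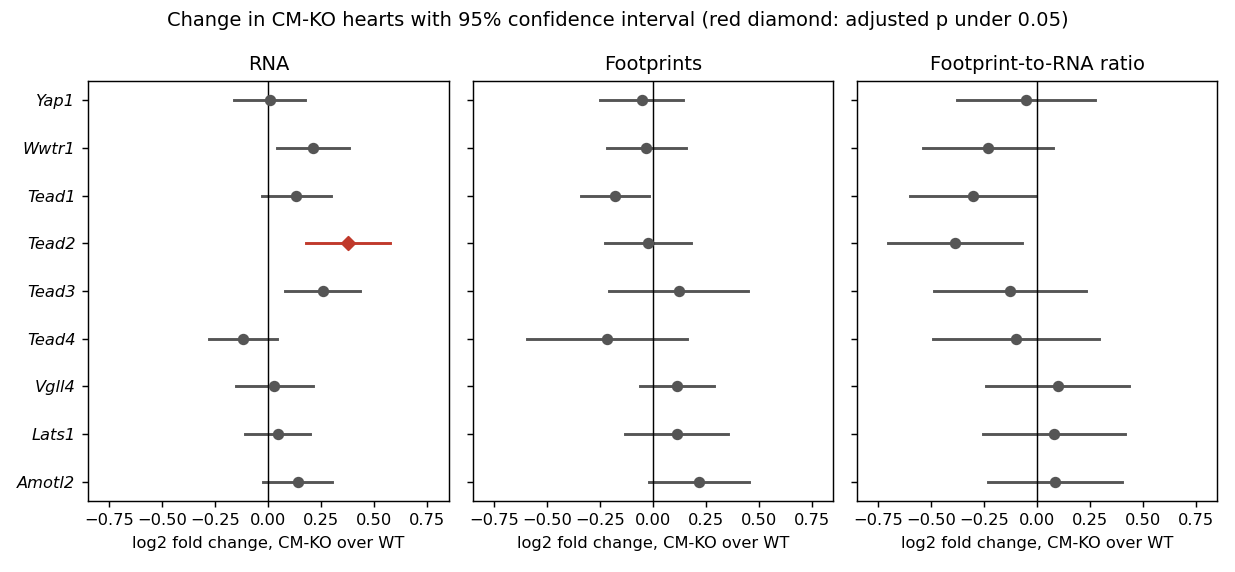
Log2 fold changes of CM-KO over WT (x axis) for 9 genes in RNA, footprints and the footprint-to-RNA ratio; points are edgeR estimates and lines are 95% confidence intervals. Tead2 RNA, at 0.38, is the only red diamond (adjusted p under 0.05).

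The footprint-to-RNA ratio of a gene, its ribosome occupancy, was compared between genotypes with the interaction of genotype and assay over 12 libraries. For 3 genes, Tead2, Tead1 and Wwtr1, every CM-KO pool had a lower ratio than every WT pool, and no gene was called. The background was 0.84% of 15231 genes called (128 genes, or 226 with the pool as a block), 0.834% lower and 0.00657% higher, and 10.5% of genes had all CM-KO pools below all WT pools (4.9% had them all above). DESeq2 called none of the 9, and 2 had an unadjusted p under 0.05 in edgeR, against 6.21% of all genes. Tead2 had ratios of 0.218, 0.231 and 0.222 in CM-KO and of 0.312, 0.284 and 0.291 in WT. The gap between the genotypes, from 0.231 to 0.284, was wider than the range within either. The log2 fold change of the ratio was -0.39 (95% interval -0.70 to -0.07, unadjusted p = 0.0185, adjusted p = 0.519, edgeR). Tead1 had ratios of 0.117, 0.116 and 0.118 in CM-KO and of 0.145, 0.148 and 0.140 in WT. Both groups were tight, and the log2 fold change was -0.30 (95% interval -0.60 to -0.0036, unadjusted p = 0.0475, adjusted p = 0.784, edgeR). Wwtr1 had ratios of 0.239, 0.300 and 0.298 in CM-KO and of 0.317, 0.350 and 0.318 in WT, a change of -0.23 on the log2 scale (adjusted p = 0.999, edgeR). The authors' deposited table lists occupancy log2 fold changes of -0.39 for Tead2 (adjusted p = 0.185) and of -0.30 for Tead1 (adjusted p = 0.0769).

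The other 6 genes had overlapping ratios. Yap1 stood at 0.376, 0.514 and 0.534 in CM-KO and at 0.512, 0.497 and 0.461 in WT, with CM-KO pool 1 low as in its footprints. Its ratio changed by -0.05 on the log2 scale, with a 95% interval of -0.38 to 0.27. Tead3, at -0.13, and Tead4, at -0.10, had negative log2 fold changes of the ratio, and Vgll4 (0.10), Lats1 (0.08) and Amotl2 (0.08) had positive ones.

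**Figure D3:**
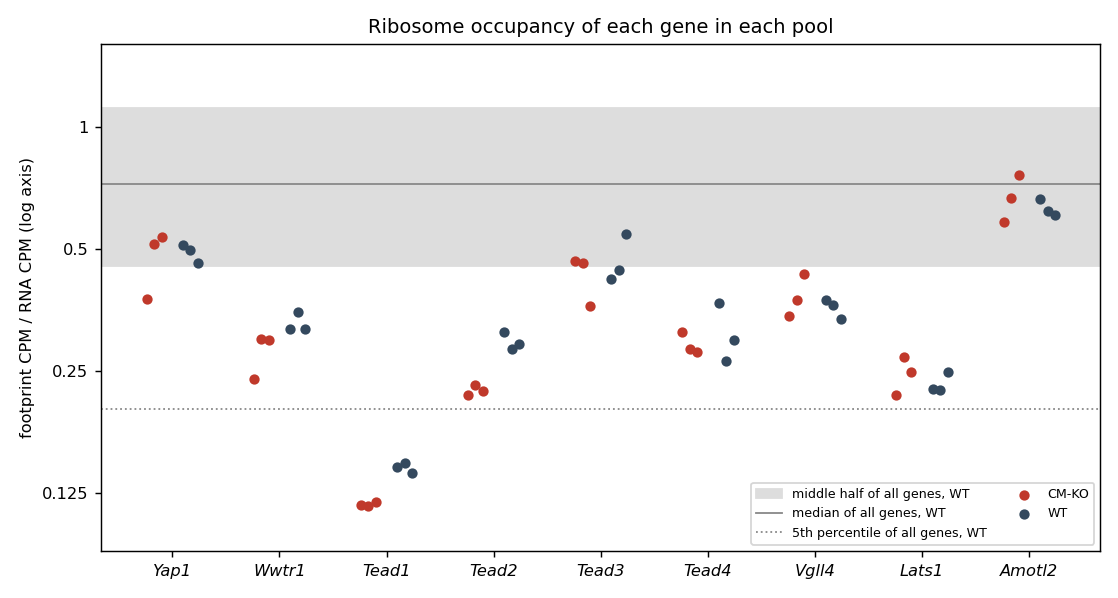
Footprint CPM over RNA CPM (y axis, log scale) of 9 genes in each pool, CM-KO (red) left of WT (blue), over the interquartile range (grey), median and 5th percentile of all genes in WT. Tead1 lies lowest, at 0.116 to 0.118 in CM-KO and 0.140 to 0.148 in WT, and all 9 genes lie below the WT median of 0.722 when pools are averaged.

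All 9 genes had a lower occupancy than the median gene in both genotypes. The ratio of mean CPM ran from 0.117 (Tead1) to 0.668 (Amotl2) in CM-KO, where the median of all genes was 0.689, and from 0.144 (Tead1) to 0.631 (Amotl2) in WT, where it was 0.722. Only 1.62% of genes in CM-KO and 2.15% in WT had a lower ratio than Tead1. For Lats1 this was 9.05% in CM-KO and 6.94% in WT, and for Tead2 it was 7.53% in CM-KO and 11.4% in WT. Yap1, with a ratio of 0.470 in CM-KO and of 0.489 in WT, had 28.6% of genes below it in CM-KO and 28.2% in WT. Footprints lie mostly on coding sequence while RNA reads come from the whole transcript, so this ratio depends on the coding share of an mRNA. That share was 13.1% of 9969 bases for the canonical transcript of Tead1 and 62.2% of 2148 bases for that of Tead2. With the WT ratio expressed per length of coding sequence and of transcript, Tead1 stood at 1.10, with 30% of 13871 genes below it, and the median of all genes was 1.66. On that scale Tead2, at 0.474 with 4.95% of genes below, and Lats1, at 0.511 with 6.16% below, were the lowest of the 9. Yap1 was the highest at 1.45, with 43.4% of genes below, and all 9 stayed under the median.

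The leaders of these mRNAs are a feature the choice of genes did not use. The 5′ UTR of the canonical transcript held 74.6% GC in Tead1, 74.1% in Tead3, 72.8% in Tead4, 70.7% in Yap1 and 70.3% in Tead2, against a median of 64.7% over genes. Lats1 (68.6%), Amotl2 (64.98%) and Wwtr1 (64.66%) lay nearer that median, and 85% of genes lay below Tead1 and 71.7% below Tead2. Vgll4 was at the other end, with 42.8% GC and 1.37% of genes below it. Leader lengths ran from 91 bases in Tead2 to 593 bases in Lats1, around a median of 244. Folding energy was predicted (RNAfold) for the last 150 bases of the leader, or for the whole leader where it was shorter. It ran from -45.3 kcal/mol per 100 bases in Tead4 to -27.7 in Lats1, around a median of -36.1. Tead2 and Tead1 had the most negative ratio changes. The value was -34.0 for Tead2, over its whole leader of 91 bases. It was -43.2 for Tead1, over 150 bases that end at its downstream ATG. These windows differ in length, so the values are not directly comparable, and a link of folding to the ratio changes was not tested. Among genes with the non-ATG start codons printed above, the WT ratio was 0.469 for Tead3 and 0.309 for Tead4, whose canonical starts these are. It was 0.144 for Tead1, whose canonical start is the downstream ATG. Over all genes, 42 with a canonical start other than ATG had a median WT ratio of 0.659. The median was 0.734 for 13829 genes with ATG, Tead1 among them. These ratios are not adjusted for coding share. Per length of coding sequence and of transcript, Tead4 stood at 1.43, Tead1 at 1.10 and Tead3 at 0.935. Tead2, which starts at ATG, stood at 0.474 on that scale. A link of the start codon to the ratio was not tested.

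Levels of different genes were compared per kilobase, of merged exons for RNA and of coding sequence for footprints. In RNA, Tead2 (53.0 CPM per kb) and Tead1 (52.4) led in CM-KO with overlapping ranges, followed by Yap1 (25.8), Amotl2 (20.8), Vgll4 (18.5), Wwtr1 (12.3), Lats1 (7.62), Tead3 (6.53) and Tead4 (5.03). In WT, Tead1 (47.9 CPM per kb) was above Tead2 (40.8) without overlap, and then came Yap1 (25.7), Amotl2 (18.9), Vgll4 (18.1), Wwtr1 (10.7), Lats1 (7.38), Tead3 (5.47) and Tead4 (5.46). Amotl2 and Vgll4 overlapped in both genotypes, and Tead3 and Tead4 overlapped in WT. With the length of the canonical transcript, Tead2 was ahead of Tead1 in both genotypes, at 135 against 71.4 CPM per kb in CM-KO and at 104 against 65.2 in WT. In footprints Yap1 was first, at 80.3 CPM per kb in CM-KO and 83.1 in WT, ahead of Tead1 at 63.7 in CM-KO and 71.7 in WT. Tead2 followed at 48.6 in CM-KO and 49.2 in WT. Lats1 was last, at 6.93 in CM-KO and 6.38 in WT, with a range that overlapped that of Tead4.

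As a share of TEAD RNA per kilobase of merged exons, Tead2 made up 45.2 ± 2.36% in CM-KO and 40.9 ± 2.50% in WT (SD, n = 3 each). The ranges overlapped. Tead1 made up 44.9 ± 2.30% in CM-KO and 48.1 ± 2.71% in WT. Tead4 made up 4.31 ± 0.326% in CM-KO and 5.48 ± 0.169% in WT, without overlap. Of TEAD footprints per kilobase of coding sequence, Tead1 held 47.8 ± 2.49% in CM-KO and 50.5 ± 1.57% in WT, and Tead2 held 36.3 ± 2.90% in CM-KO and 34.7 ± 1.28% in WT. Tead2 and Tead1 thus took up most of the family in both assays, Tead1 with the larger share of footprints. The RNA shares depend on the length used. Per kb of coding sequence, WT RNA was 497 CPM for Tead1 and 167 CPM for Tead2. Per kb of canonical transcript it was 65.2 CPM for Tead1 and 104 CPM for Tead2. RNA and footprint shares, computed on unlike lengths, are therefore not compared with each other. Per kilobase of merged exons, Wwtr1 gave 32.4 ± 1.43% of the RNA of the coactivator pair in CM-KO and 29.4 ± 1.79% in WT. Yap1 gave the rest. In hearts measured whole, fewer cells of a type and less RNA per cell cannot be told apart.

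Among 40 further genes of the pathway, 38 were tested, and 5 were called higher in RNA and none lower, against 3.57% of all genes called higher and 0.805% lower. Csnk1e, a casein kinase gene, had the largest change, with RNA at 172, 206 and 202 CPM in CM-KO against 122, 129 and 128 CPM in WT (log2 fold change 0.62, adjusted p = 0.0023, edgeR). Strn4, which encodes a subunit of the STRIPAK phosphatase complex that opposes the Hippo kinases, was at 163, 186 and 163 CPM in CM-KO and at 112, 121 and 123 CPM in WT (0.53, adjusted p = 0.00387, edgeR). The CM-KO and WT pools of both genes were well apart. Map4k4, a kinase gene upstream of LATS, rose by 0.44 (adjusted p = 0.00567), Mob1b, a LATS coactivator gene, by 0.34 (0.0185), and the LATS inhibitor gene Ajuba by 0.27 (0.0456), in edgeR. The median over the 38 genes was 0.08, and 31 were above 0, as were 51.7% of all genes. This list was drawn up with earlier results of these data known, so its shares against all genes are not read further. Without CM-KO pools 1 and 2, the Csnk1e change was 0.68 (edgeR). That fit left 1 CM-KO pool and so had no spread among CM-KO pools to test against. Of the 5 called, Ajuba was lost with relative log expression (0.27, adjusted p = 0.0552) or upper quartile scaling (0.23, 0.0799), in edgeR. It was also lost when any single pool was left out (0.25 to 0.32, adjusted p 0.112 to 0.171, edgeR). Mob1b was lost without CM-KO pool 1 (0.30, adjusted p = 0.0816), CM-KO pool 2 (0.37, 0.0636) or WT pool 2 (0.31, 0.226), and Map4k4 without WT pool 2 (0.40, 0.0902), in edgeR.

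None of these pathway genes was called in footprints, where 5 had an unadjusted p under 0.05 and DESeq2 called 1, Slmap. Over all genes, 0.23% were called in footprints and 8.86% had an unadjusted p under 0.05. Slmap, another STRIPAK subunit gene, had the smallest p, with footprints at 51.4, 50.0 and 44.9 CPM in CM-KO and at 69.6, 69.7 and 62.4 CPM in WT (log2 fold change -0.47, adjusted p = 0.0773, edgeR). With the replicate number as a block, Slmap passed at -0.47 (adjusted p = 0.00972, edgeR). The ratio of footprints to RNA was lower for 2 genes, Strn4 at -0.76 (adjusted p = 0.0116) and Csnk1e at -0.72 (adjusted p = 0.00825), in edgeR, against 0.834% of all genes called lower. The authors' deposited table lists -0.76 for Strn4 (adjusted p = 1.65e-06), -0.73 for Csnk1e (1.64e-06) and -0.49 for Map4k4 (4.89e-05). Map4k4 had ratios of 0.337, 0.358 and 0.337 in CM-KO and of 0.466, 0.524 and 0.467 in WT, without overlap. Its change of -0.49 did not pass in edgeR (adjusted p = 0.147) except with upper quartile scaling (-0.46, 0.0105). Csnk1e had ratios of 0.358, 0.332 and 0.291 in CM-KO and of 0.544, 0.545 and 0.529 in WT. Strn4 had ratios of 0.375, 0.425 and 0.405 in CM-KO and of 0.701, 0.684 and 0.666 in WT. The RNA libraries are shared by the RNA and the ratio comparisons, so these changes of the ratio are not independent of the RNA changes above. Without CM-KO pools 1 and 2, Strn4 was at -0.71 (adjusted p = 0.399) and Csnk1e at -0.85 (adjusted p = 0.202), and neither passed in edgeR. With scaling by relative log expression neither passed, at -0.72 (adjusted p = 0.172) for Strn4 and -0.68 (adjusted p = 0.159) for Csnk1e. Left out singly, CM-KO pool 3, WT pool 1 and WT pool 2 each ended both calls, CM-KO pool 1 that of Strn4 and CM-KO pool 2 that of Csnk1e, with log2 fold changes of -0.74 to -0.59 and adjusted p from 0.0527 to 0.628 (edgeR).

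**Figure D4:**
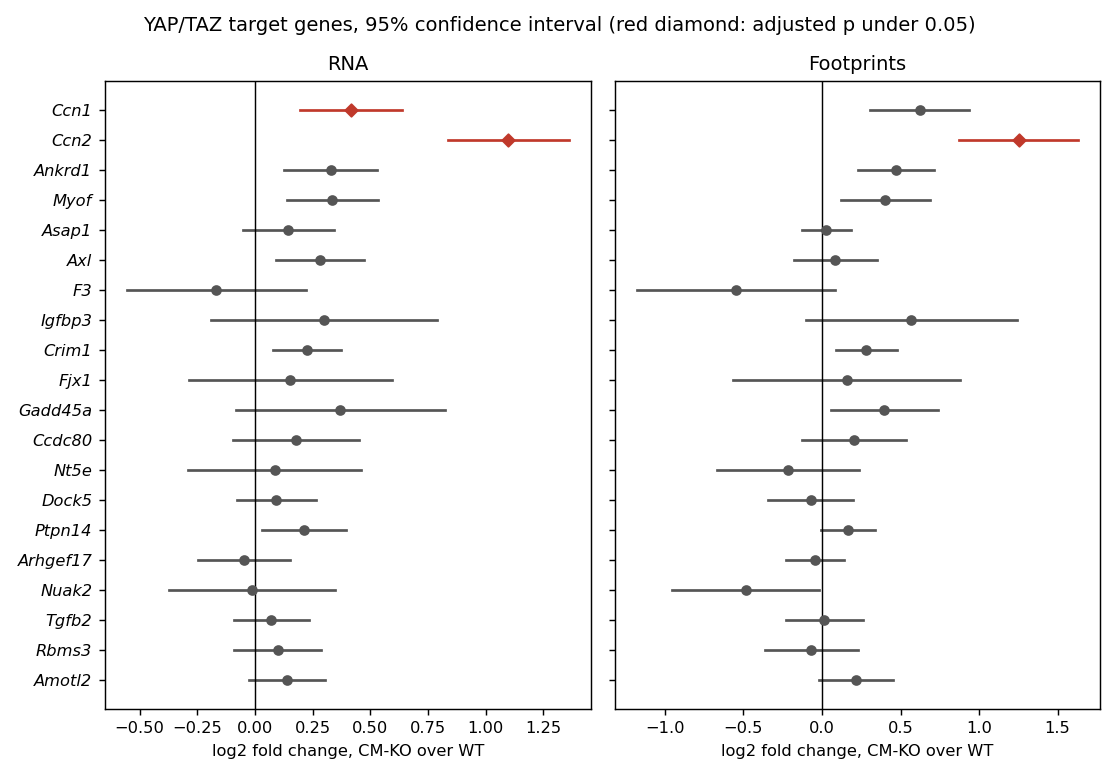
Log2 fold changes of CM-KO over WT (x axes, which differ in range) of 20 YAP/TAZ target genes in RNA and in footprints, with 95% confidence intervals. Ccn2 is called in both panels, at 1.10 in RNA and 1.25 in footprints, and Ccn1 in RNA at 0.42.

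Transcripts that YAP1, TAZ and TEAD proteins are known to activate were read from a published signature of 22 targets, of which 20 were tested, Amotl2 among them. In RNA 2 were called higher and none lower, against 3.57% of all genes higher and 0.805% lower. In all 17 were above 0, as were 51.7% of all genes. Their median was 0.17 on the log2 scale, against 0.01 over all genes. The choice of this list was also made with earlier results of these data known. Ccn2, a secreted matrix protein gene and a standard YAP target, had RNA at 64.0, 75.1 and 84.5 CPM in CM-KO and at 38.5, 36.3 and 29.9 CPM in WT. Its footprints were at 80.6, 119 and 136 CPM in CM-KO and at 45.1, 50.6 and 45.8 CPM in WT. Both assays separated the genotypes, with folds of 2.14 in RNA (95% interval 1.79 to 2.57, adjusted p = 0.00104) and of 2.38 in footprints (1.83 to 3.10, adjusted p = 0.0315, edgeR). Without CM-KO pools 1 and 2, the Ccn2 log2 fold change was 1.28 in RNA and 1.53 in footprints (edgeR). That fit left 1 CM-KO pool, pool 3, which had the highest Ccn2 level of the CM-KO pools in both assays. The footprint call was lost when any single pool other than CM-KO pool 1 was left out (1.09 to 1.30, adjusted p 0.0724 to 0.251, edgeR).

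Ccn1, a related matrix protein gene, had RNA at 49.9, 64.1 and 61.2 CPM in CM-KO and at 41.7, 47.9 and 41.6 CPM in WT (log2 fold change 0.42, adjusted p = 0.0414, edgeR). The nearest values, 49.9 and 47.9 CPM, were close, and the call was lost without CM-KO pool 2 (0.35, adjusted p = 0.184) or pool 3 (0.38, 0.143). It was also lost without WT pool 1 (0.39, adjusted p = 0.103), pool 2 (0.47, 0.0962) or pool 3 (0.39, 0.0517), and without CM-KO pools 1 and 2 together (0.48, 0.14), in edgeR. In footprints Ccn1 was at 102, 147 and 146 CPM in CM-KO and at 73.9, 92.9 and 89.3 CPM in WT (0.62, adjusted p = 0.158, edgeR). Ankrd1, a cardiac stress-responsive gene, changed by 0.33 (log2) in RNA, where its adjusted p was 0.0802 in edgeR, and by 0.47 in footprints, where it was 0.159. Myof, at 0.34 in RNA (adjusted p = 0.0649), and Crim1, at 0.22 (adjusted p = 0.0972), also missed the threshold. With the replicate number as a block, 4 targets were called in footprints rather than 1, namely Ccn2, Ccn1, Ankrd1 and Myof, with adjusted p from 0.00222 to 0.0494, and 203 rather than 35 of all genes were called. No target was called in occupancy by edgeR or by DESeq2, none had an unadjusted p under 0.05, and their ratios had a median change of 0.01 (log2).

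TEAD proteins are known to bind the motif CATTCC. It was searched on both strands (as CATTCC and as GGAATG) in the 250 bases before each RefSeq gene start. It was present in 12.6% of 32851 promoters and in 7 of 12 promoters of the genes described here (promoters of 8 of the 10 genes were held). Of the target genes, 6 of 17 promoters had it (promoters of 15 of the 22 genes were held). No promoter of Ccn2 was held, so it was not searched. A gene can have more than 1 promoter, so these promoters are not independent. The match in Amotl2, which lies in both sets, and that in Ccn1 are printed with the motif in capitals, on the strand of the gene. They come from the RefSeq table on GRCm38.p6 and were placed on GRCm39 by exact match. For Amotl2 the table holds 1 start, which lies inside the GENCODE span of the gene given above, downstream of its first annotated base.
Amotl2 (plus strand, chr9:102594926-102594955, motif 65 to 60 bases before the RefSeq start): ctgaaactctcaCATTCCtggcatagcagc
Ccn1 (minus strand, chr3:145355826-145355855, motif 103 to 98 bases before the RefSeq start): cgcgccaaccaaCATTCCtgagatgtttga
Among the genes described here, Yap1, Wwtr1, Tead3 and Vgll4 also had a match, and of these and Amotl2 none was called in any comparison. The match is a description of the sequence, and no factor binding was measured.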

How the data were processed

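RNA and footprint libraries of 3 pools per genotype were analysed. The authors used the sequencing service's own pipeline and feature counter on mm39, per the labels' protocols, and aligner, annotation and strand setting are not stated. Raw, unnormalized read counts for each gene were deposited. The authors' deposited RPM, their occupancy ratio, their log2 fold changes and their p-values were used for checks or named as theirs. The 17165 genes without blanks were tested by their counts in edgeR 4.0.16 (R 4.3.3), by its quasi-likelihood test with robust fits, TMM scaling and filterByExpr (minimum count 10, minimum total 15). RNA and footprints were tested 3 against 3, and occupancy as an interaction over 12 libraries. P-values were Benjamini-Hochberg adjusted over all genes tested. Levels are TMM-scaled CPM. Alternatives were other scalings, no filter, DESeq2 1.42.0, blocks and pools left out. The scripts were tested on simulated data, in which the occupancy test recovered fewer of the changed genes than the RNA and footprint tests. Features came from GENCODE vM39 (GRCm39, the assembly mm39 names), with RNAfold of ViennaRNA 2.7.2, and promoters from RefSeq.

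Use of unique molecular identifiers is not stated, so reads may not be independent molecules. Median half-widths of 95% intervals of log2 fold changes were 0.23 in RNA, 0.32 in footprints and 0.40 in occupancy. Genes and lists were chosen with earlier results of these data known. All members were named, as were listed genes past the threshold and at most 3 others with the smallest p per list and comparison. Deviations from group means of same-numbered pools correlated by 0.421, 0.141 and 0.178 in footprints over 9250 genes. In RNA they correlated by -0.222, 0.195 and -0.49 over 10501 genes. Deviations within 3 pools are linked, so these values do not settle whether the numbers pair libraries. The replicate block was therefore kept as an alternative. Both libraries of a pool share their hearts.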

Additional observations from a re-analysis of the deposited data

How the results depend on the processing

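Over the alternatives, the calls of the 9 genes stayed at 0 in footprints and in occupancy, leave-one-out included. In RNA the count of 1 (Tead2) fell to 0 with upper quartile scaling, with the replicate block (Tead2 0.37, adjusted p = 0.0564), in a joint model of all 12 libraries and without CM-KO pools 1 and 2, an alternative chosen after seeing the data, and it was 0 to 1 with 1 pool left out. Deviations of RNA pools of one number correlated without a common sign (r = -0.222, 0.195 and -0.49). The calls of all genes were 367 in RNA with the block against 750, and 226 in occupancy with the pool as a block against 128. Called pathway genes in RNA (5) were 4 with relative log expression or upper quartile scaling (Ajuba was lost), 6 with DESeq2 (Wwc2 was gained, adjusted p = 0.0433), 3 with the block, 2 with all 12 libraries, 1 without CM-KO pools 1 and 2 and 2 to 4 with 1 pool left out. Called targets in RNA (2) were 1 with upper quartile scaling, the block, all 12 libraries or without CM-KO pools 1 and 2, 4 with DESeq2 and 1 to 3 with 1 pool left out. In footprints, pathway calls (0) were 1 with DESeq2 or the block and 0 to 1 with 1 pool left out. Target calls (1) were 3 with DESeq2, 4 with the block, 2 without CM-KO pools 1 and 2 and 0 to 4 with 1 pool left out. Pathway calls in occupancy (2) were 3 with upper quartile scaling (Map4k4 was gained), 0 with relative log expression or without CM-KO pools 1 and 2 and 0 to 2 with 1 pool left out. The fit without CM-KO pools 1 and 2 left 1 CM-KO pool, so its counts do not reflect spread among CM-KO pools. The cause was not tested.

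Signs turned for changes near 0. Yap1 RNA was -0.0016 with relative log expression, -0.038 with upper quartile, -0.0017 with DESeq2, -0.0024 with all 12 libraries and -0.10 without CM-KO pools 1 and 2. Vgll4 RNA was -0.017 with upper quartile and -0.11 without CM-KO pools 1 and 2. In footprints, all 12 libraries gave 0.011 for Wwtr1 and 0.019 for Tead2, and leaving out CM-KO pools 1 and 2 gave 0.0204 for Yap1, 0.058 for Wwtr1 and -0.13 for Tead3, and 0.17 for the Yap1 ratio. With 1 pool left out, the ranges were -0.062 to 0.059 (Yap1) and -0.054 to 0.094 (Vgll4) in RNA, -0.076 to 0.015 (Wwtr1), -0.10 to 0.034 (Yap1) and -0.12 to 0.039 (Tead2) in footprints, and -0.15 to 0.18 (Yap1), -0.18 to 0.10 (Tead4), -0.19 to 0.043 (Tead3), -0.0069 to 0.25 (Vgll4) and -0.016 to 0.26 (Ddx3x) in the ratio.

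WT RNA levels per kb of coding sequence were 497 (Tead1), 170 (Yap1), 167 (Tead2), 114 (Vgll4), 107 (Wwtr1), 57.5 (Amotl2), 27.9 (Tead3), 27.4 (Lats1) and 25.9 (Tead4). Per kb of canonical transcript, a length added after seeing the data, they were 104 (Tead2), 65.2 (Tead1), 57.5 (Yap1), 48.0 (Vgll4), 30.8 (Amotl2), 26.9 (Wwtr1), 14.0 (Tead3) and 12.5 (Lats1). These move by construction, since the length changes. Depth limits Tead4 and Tead3 footprints most.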
